A study of Mus musculus with 22 samples.

Results

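Cell division genes were read in the pancreas of mice as 41 genes that act in DNA replication, chromosome segregation and cytokinesis. They were picked by symbol from the probe names of the deposited count table and are carried by 85 of its 30146 probes, out of 21450 symbols in all. Earlier values from these libraries were part of that choice: the genes were high in newborn-type pancreas, and Ccnb2, Cenpa, Cip2a and Pimreg had been called lower in TCDD-labelled litters in summed pup counts, sums that mixed both classes of library described below. Levels between the classes below are therefore a description without a test.

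The libraries came from whole pancreas of C57Bl/6 dams and of their pups, taken on the day of birth. Dams received the dioxin TCDD at 20 ng/kg per day in corn oil, or corn oil alone (Control), by injection under the skin 2 times per week from before mating until birth, so pups were exposed only through their mother. All animals carry the same strain background, no transgene is named, and 1 male and 1 female pup were taken per litter. RNA was read with TempO-Seq, in which pairs of short detector oligos are ligated on each transcript and counted, giving 11223816 to 34911410 counts in each of 22 libraries.

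The label for stage did not match the stage genes in 8 of the 22 libraries, and the label for sex did not match Y-linked transcripts in 10. The libraries were therefore split by measured stage genes. In 14 libraries the fetal plasma protein gene Afp exceeded the lipase gene Pnlip (newborn type, Afp 468 to 1487 CPM, the count scaled by the library total), and in 8 Pnlip exceeded Afp (adult type, Afp 0 to 1.25 CPM). Libraries are named by their labels throughout. Newborn type held 8 Control-labelled libraries (6 labelled pup, 2 labelled dam) and 6 TCDD-labelled ones (4 pup, 2 dam), and adult type held 2 Control-labelled dams and 6 TCDD-labelled libraries (2 dam, 4 pup). Whether the label for chemical is right in these libraries was not tested. Acinar markers were present in every library (10 of 10 genes above 3 counts in each class, summed level 71740 to 93780 CPM in newborn type and 164600 to 184600 CPM in adult type), in keeping with the tissue label.

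A dividing cell copies its DNA in S phase and then separates the copies in mitosis. E2F transcription factors drive genes of the first step, among them the MCM helicase subunits and ribonucleotide reductase. Genes of the second step are held down by the DREAM repressor complex and driven by MYB and FOXM1, through CHR promoter elements. Many of their promoters also hold CCAAT boxes. In rodents the pancreas grows by division of acinar, islet and mesenchymal cells around birth, and few of its cells divide in the adult.

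RefSeq promoter windows (GRCm38.p6, 250 bases before to 50 after a start) existed for 33 of the 41 genes, and are shown because these genes moved together across libraries, as described below. The 160 bases before the start are printed 5′ to 3′ on the strand of the gene for 3 mitotic genes with the CHR word, for Ccnb2, and for 2 MCM genes with E2F words. They lie at chr11:99024190-99024349 (minus strand, Top2a), chr10:69352913-69353072 (minus, Cdk1), chr4:118437344-118437503 (minus, Cdc20), chr9:70421555-70421714 (minus, Ccnb2), chr1:128359706-128359865 (minus, Mcm6) and chr8:75109349-75109508 (plus, Mcm5). All 6 are flanking sequence upstream of the annotated start. Capitals mark any match on either strand to CHR (TTTGAA), the CCAAT box (CCAAT) or an E2F word (TTTCCCGC, TTTCGCGC, TTTGCCGC, TTTGGCGC), and overlapping matches run together.
Top2a: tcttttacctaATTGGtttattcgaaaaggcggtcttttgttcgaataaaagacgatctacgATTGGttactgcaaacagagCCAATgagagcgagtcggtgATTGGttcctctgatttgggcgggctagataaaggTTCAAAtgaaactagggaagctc
Cdk1: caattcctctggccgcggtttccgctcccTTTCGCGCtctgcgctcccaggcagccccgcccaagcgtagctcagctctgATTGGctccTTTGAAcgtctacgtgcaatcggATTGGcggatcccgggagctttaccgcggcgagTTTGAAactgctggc
Cdc20: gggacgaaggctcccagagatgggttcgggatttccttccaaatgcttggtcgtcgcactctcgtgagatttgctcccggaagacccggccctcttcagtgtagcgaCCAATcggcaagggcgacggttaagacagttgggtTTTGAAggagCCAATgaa
Ccnb2: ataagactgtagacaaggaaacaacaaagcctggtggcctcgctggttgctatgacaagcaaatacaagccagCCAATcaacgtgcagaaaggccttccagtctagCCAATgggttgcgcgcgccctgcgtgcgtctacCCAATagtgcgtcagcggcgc
Mcm6: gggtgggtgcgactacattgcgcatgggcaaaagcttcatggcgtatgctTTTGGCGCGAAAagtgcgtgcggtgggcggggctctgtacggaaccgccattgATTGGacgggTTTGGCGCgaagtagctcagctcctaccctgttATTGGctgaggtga
Mcm5: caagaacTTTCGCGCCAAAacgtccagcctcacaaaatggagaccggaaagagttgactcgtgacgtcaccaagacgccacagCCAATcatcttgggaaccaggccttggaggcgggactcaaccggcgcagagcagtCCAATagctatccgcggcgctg

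Over whole 300-base windows the CHR word occurred in 14 of the 21 mitotic genes with a window and in 1 of the 12 genes of S phase (Mcm2). It occurred in 17.9% of all 32851 windows in the table. The Ccnb2 window holds the CHR word outside the printed stretch. E2F words went the other way, with 1 of 21 mitotic genes (Cdk1) and 5 of 12 S-phase genes (Cdk2, Mcm3, Mcm5, Mcm6 and Mcm7), beside 2.27% of all windows. CCAAT boxes were in 19 of 21 and 9 of 12, beside 37.4%. The core word of the aryl hydrocarbon receptor, through which TCDD acts (GCGTG, either strand), was in 15 of 21 and 5 of 12, beside 32.4%. These are matches of letters and not shown binding sites.

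All 41 genes had a higher median CPM in newborn-type than in adult-type libraries, and for 38 of them every newborn-type library lay above every adult-type library. That second pattern was common: 70.3% of the 12106 symbols with at least 10 counts in 8 or more libraries showed it, so the count says little about cell division. None was entirely lower, beside 0.487% of symbols. The ratio of medians was 9.05-fold over the 41 genes (range 5.02-fold for Cip2a to 112-fold for Pimreg), against 3.94-fold over all symbols. In bulk tissue, fewer dividing cells and less RNA per dividing cell cannot be told apart. Markers of other cells moved with the classes: summed mesenchyme markers had medians of 2497 CPM in newborn type and 65.3 CPM in adult type, islet markers 2051 and 168.8 CPM, duct markers 879 and 142 CPM, and macrophage and neutrophil markers 90.3 and 5.21 CPM. Hepatocyte markers had 598 and 8.14 CPM, erythroid markers 61.7 and 5.02 CPM, and intestinal markers 36.4 and 0.542 CPM. Acinar markers alone had the higher median in adult type. The part of these cells, or of adjoining tissue, in the class difference was not tested.

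**Figure D1:**
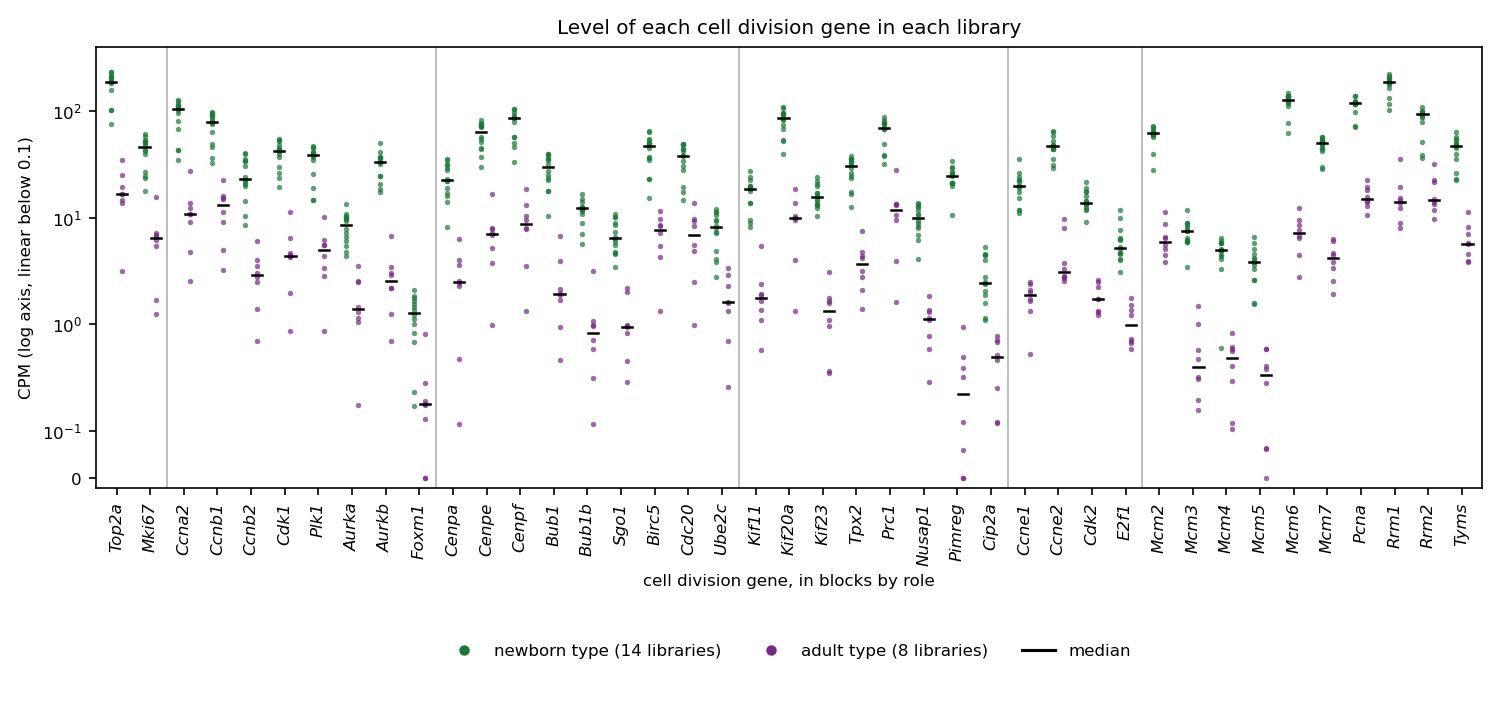
Level of each cell division gene in each library, in CPM on a log axis that is linear below 0.1, with newborn-type libraries in green, adult-type libraries in purple and black bars for class medians. The green points lie above all purple points for 38 of the 41 genes. In adult type the highest library stood 8.84-fold above the lowest in the median gene, and 3.29-fold in the median replication gene (rightmost block). Both medians leave out genes with a value of 0 in some adult-type library (Foxm1, Pimreg and Mcm5), for which no fold exists.

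The scale of that ratio rested on how libraries were made comparable. In adult type, 20 probes took 69.8% to 74.7% of all counts, against 47.1% to 59.6% in newborn type, which lowers the CPM of every other gene in adult type. With the 20 most abundant probes over all libraries left out of the totals, all symbols still had a median ratio of 2.53-fold and the 41 genes one of 5.77-fold. After TMM scaling, which sets the typical gene equal between libraries, all symbols had a median ratio of 1.05-fold and the 41 genes one of 2.39-fold. All 41 ratios stayed above 1. The groups of libraries then overlapped for most genes: 7 of 41 were entirely higher in newborn type (Kif23, Pimreg, Ccne1, Cdk2, Mcm6, Mcm7 and Rrm1), beside 12.9% of all symbols. Relative to the typical symbol the genes stood 2.30-fold higher in newborn type on CPM and 2.29-fold on the TMM scale. TMM divides all genes of a library by the same factor, so these 2 values had to be close. The same holds for the place of a gene among all symbols, so the second scale is no separate support. All 41 lay above the median of all symbols on both scales, the lowest in CPM being Cip2a at the 62.2 percentile of symbols.

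**Figure D2:**
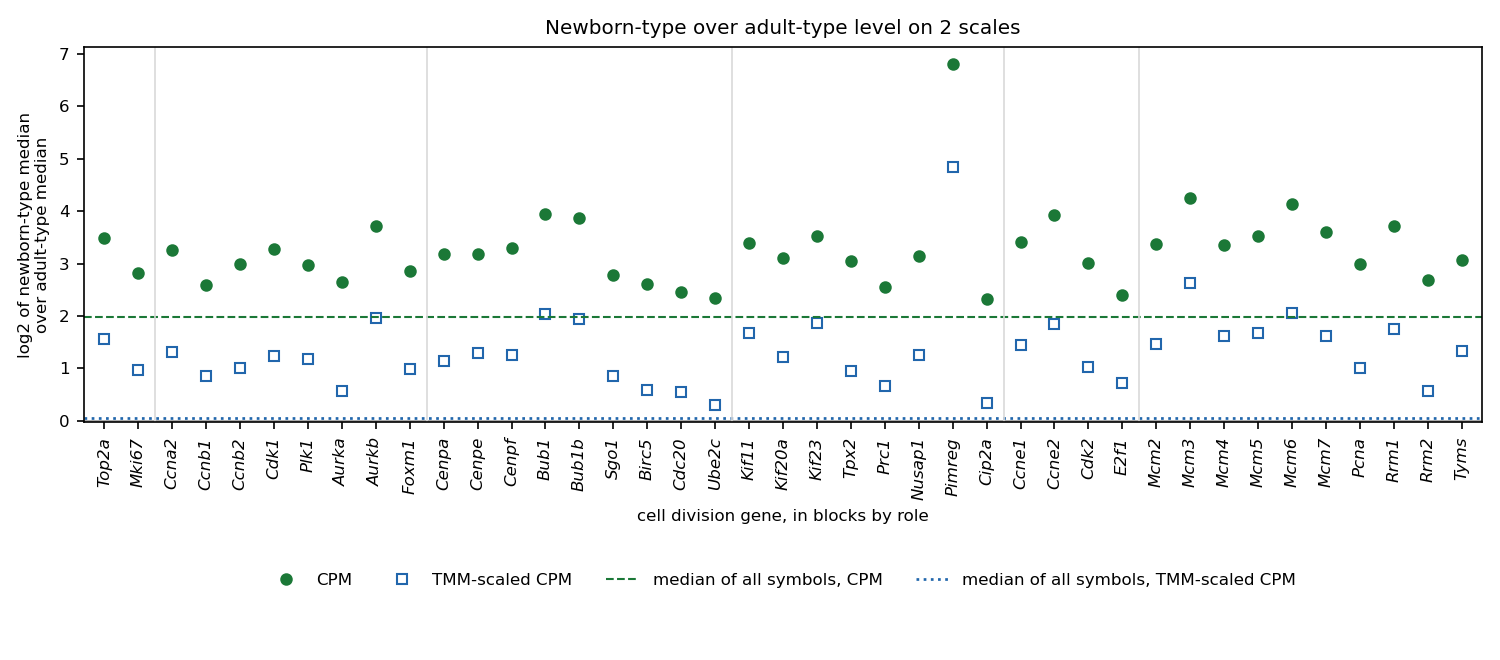
Log2 of the newborn-type median over the adult-type median for each gene, in CPM (green circles) and TMM-scaled CPM (blue squares), with the median of all symbols on each scale as a dashed and a dotted line. Every gene lies above the line of its own scale, with Pimreg the highest on both.

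Top2a, the topoisomerase that untangles sister chromatids, stood at 75.2, 189.5 and 233 CPM (lowest, median and highest newborn-type library) and at 3.20, 16.8 and 34.9 CPM in adult type. Mki67, which coats mitotic chromosomes and is the standard stain for dividing cells, stood at 17.7, 45.9 and 60.7 CPM and at 1.25, 6.45 and 15.6 CPM. The classes did not overlap for either gene in CPM, and the ratios of medians were 11.3-fold and 7.11-fold. On the TMM scale 2 of 8 adult-type libraries for Top2a and 5 of 8 for Mki67 lay above the lowest newborn-type library.

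Among mitotic cyclins and kinases, ratios of medians ran from 6.03-fold to 13.1-fold over 8 genes. Ccna2, cyclin A, which works in S phase and early mitosis, stood at 35.03, 104 and 128 CPM in newborn type and at 2.56, 10.8 and 27.4 CPM in adult type. Ccnb1, cyclin B, the partner of CDK1 that starts mitosis, stood at 32.9, 79.3 and 98.0 CPM and at 3.26, 13.2 and 22.7 CPM. Both showed a gap between the classes in CPM. Its relative Ccnb2 had a ratio of 7.92-fold and Plk1, a kinase of centrosome maturation and mitotic exit, one of 7.82-fold. The highest ratio in this group was that of Aurkb, the kinase that corrects faulty spindle attachments (13.1-fold, 17.5 to 49.9 CPM against 0.698 to 6.82 CPM). Foxm1, the transcription factor of the late mitotic genes, was near the limit of detection in adult type. In 6 of 8 adult-type libraries it had 3 counts or fewer, so its fold is not read.

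Among centromere and checkpoint genes, 8 of 9 showed no overlap in CPM, beside 70.3% of all symbols entirely higher in newborn type. On the TMM scale 0 of the 9 did, beside 12.9% of all symbols. The median ratio in CPM was 9.05-fold, beside 3.94-fold over all symbols. Bub1 and Bub1b, kinase-family genes of the spindle checkpoint, which holds anaphase until all chromosomes are attached, differed 15.4-fold and 14.6-fold. Cenpa, the histone that marks centromeres, stood at 8.22, 22.6 and 35.7 CPM in newborn type and at 0.116, 2.50 and 6.33 CPM in adult type. The kinetochore motor Cenpe (30.2 to 83.2 CPM against 0.988 to 16.7 CPM) and Cenpf (33.4 to 105 CPM against 1.34 to 18.5 CPM) differed 9.11-fold and 9.87-fold. Cdc20, activator of the anaphase-promoting complex, differed 5.53-fold and Ube2c, the ubiquitin-conjugating enzyme of that complex, 5.05-fold. For Ube2c the classes overlapped, the lowest newborn-type library standing at 2.80 CPM and the highest adult-type library at 3.39 CPM.

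Spindle and cytokinesis genes held both ends of the range. Kif20a, a kinesin of cytokinesis, stood at 39.7, 85.8 and 109.6 CPM in newborn type and at 1.34, 9.97 and 18.6 CPM in adult type. Kif23, another kinesin of the midzone, stood at 10.5, 15.5 and 24.0 CPM and at 0.349, 1.35 and 3.13 CPM. Prc1, which bundles midzone microtubules, differed 5.87-fold (32.2 to 87.7 CPM against 1.63 to 27.9 CPM). The ratio for Kif20a was 8.60-fold and that for Kif23 11.5-fold, and of the 3 only Kif23 showed no overlap on the TMM scale. Pimreg, a mitotic regulator, had 242 to 524 counts per newborn-type library and 0 to 16 counts per adult-type library, with 3 or fewer in 4 of the 8, so its 112-fold ratio is loosely set. Cip2a, an inhibitor of protein phosphatase 2A, had the lowest CPM ratio of the 41, 5.02-fold, at 1.11, 2.47 and 5.32 CPM against 0.119, 0.493 and 0.782 CPM. That ratio is loosely set too, since 2 of the 8 adult-type libraries had 3 counts or fewer. Ube2c was close to it (5.05-fold) and was the lowest on the TMM scale (log2 ratio 0.30, against 0.34 for Cip2a).

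The 4 genes of the G1/S step had ratios of 5.30-fold (E2f1) to 15.1-fold. Ccne2, a cyclin E that starts S phase, differed 15.1-fold (29.4, 46.7 and 64.9 CPM against 2.54, 3.09 and 9.74 CPM), and Ccne1 10.7-fold (11.1, 20.0 and 36 CPM against 0.523, 1.87 and 2.48 CPM). Over the 10 replication and nucleotide genes the median ratio was 10.9-fold. Mcm6, a subunit of the replicative helicase, stood at 62.2, 128 and 148 CPM in newborn type and at 2.79, 7.27 and 12.4 CPM in adult type. Rrm1, the large subunit of ribonucleotide reductase, stood at 102, 188 and 225 CPM and at 8.02, 14.2 and 35.7 CPM. Mcm6 and Rrm1 were 2 of the 7 genes that showed no overlap on the TMM scale either. Mcm5, a weakly detected helicase subunit, had 1.55, 3.85 and 6.67 CPM against 0, 0.334 and 0.594 CPM. Mcm3, another helicase subunit, had a ratio of 19.1-fold that is loosely set, since 2 of 8 adult-type libraries had 3 counts or fewer. The ratio of Mcm6 was 17.7-fold, and that of Rrm2, the small reductase subunit, 6.43-fold, the lowest of the 10.

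Mcm4 overlapped between the classes because of a single library. It had 0.605 CPM (8 counts) in control female pup 4, against 3.30 CPM in the next lowest newborn-type library, and at most 0.832 CPM in adult type. In the same library Mcm6 stood at 62.2 CPM, its lowest newborn-type value as well.

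**Figure D3:**
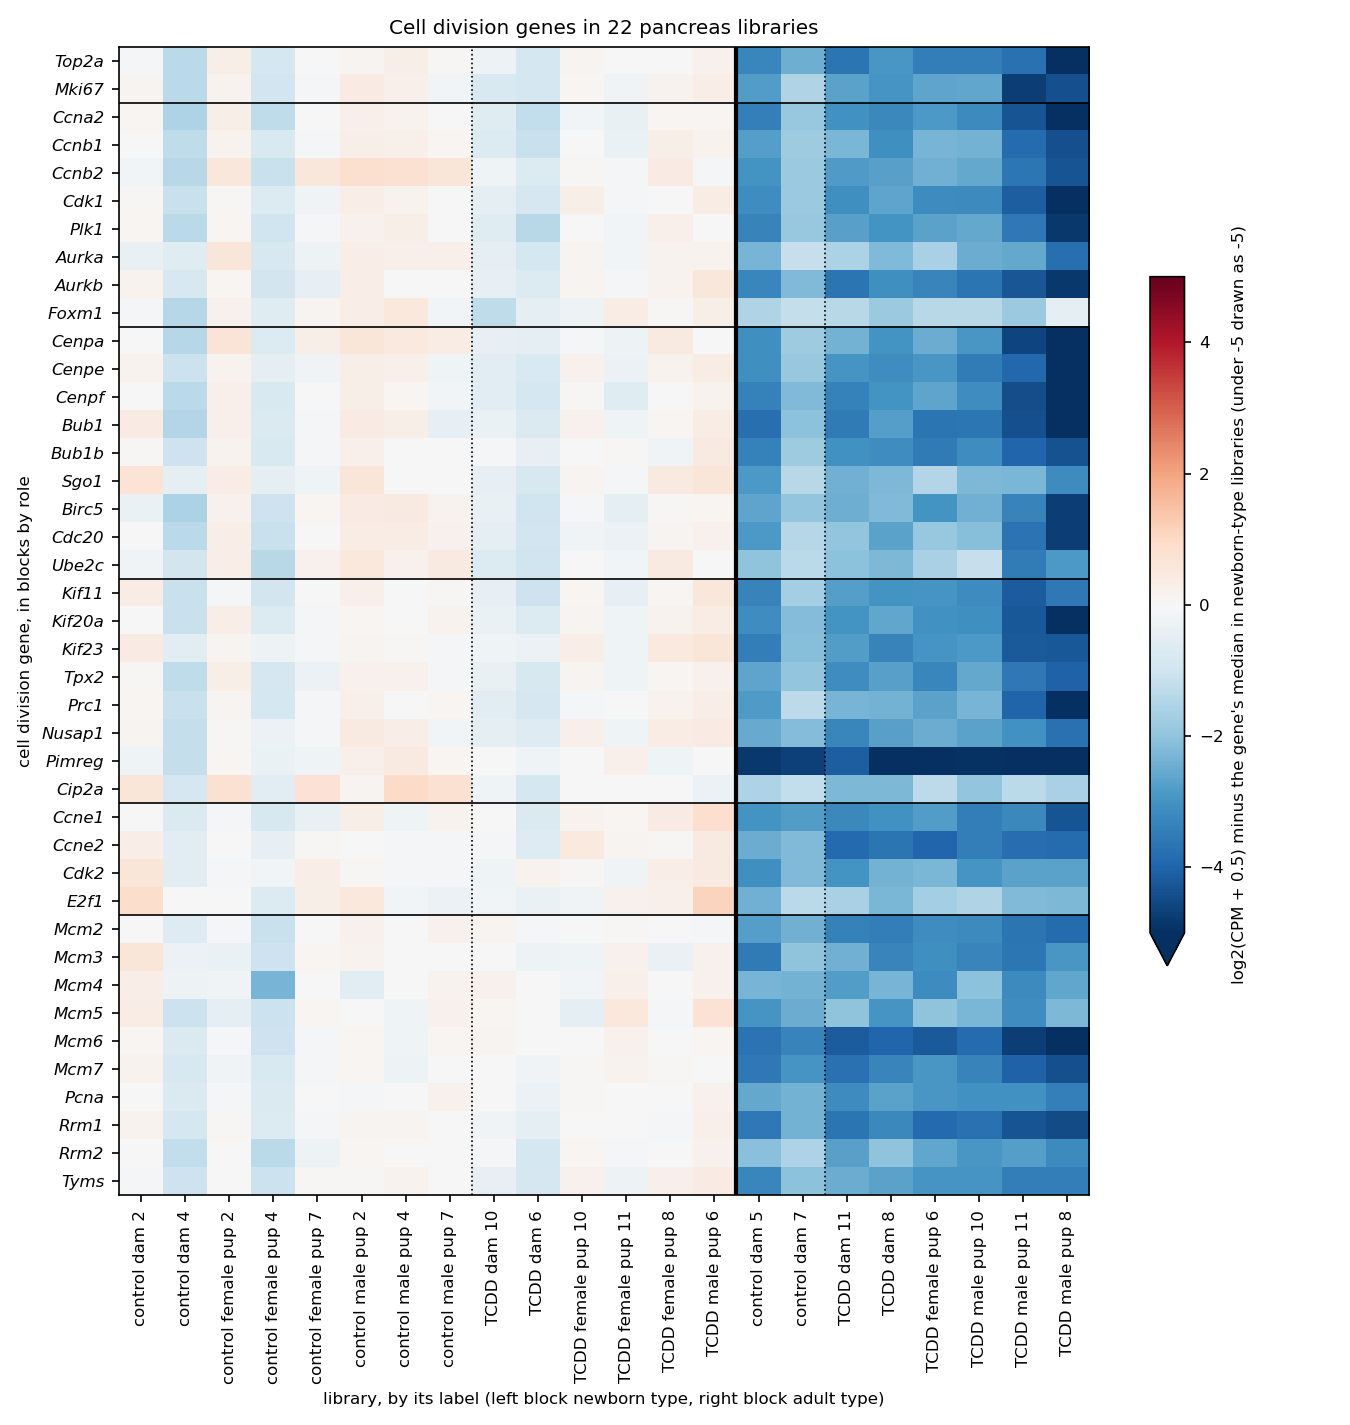
Cell division genes (rows, in blocks by role) in the 22 libraries (columns), coloured by log2(CPM + 0.5) minus the gene's median over newborn-type libraries, with values under -5 drawn as -5. The thick line parts newborn type from adult type and dotted lines part Control from TCDD labels. On the left, control dam 4 and control female pup 4 are pale blue in nearly all rows. TCDD dam 6 is pale blue in most rows, but several of its MCM rows lie near the newborn-type median. On the right, TCDD male pup 8 and TCDD male pup 11 are the darkest columns.

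Within each class most of the genes varied together. The 41 genes together had 2021 CPM in the median newborn-type library. Control dam 4 (925 CPM), control female pup 4 (1072 CPM) and TCDD dam 6 (1234 CPM) were low, followed by TCDD dam 10 (1609 CPM), and the other 10 lay between 1818 and 2290 CPM. Those first 3 libraries supplied the lowest newborn-type value of every one of the 41 genes (25, 11 and 5 genes). Not every gene was low in TCDD dam 6. Its Mcm4 (5.04 CPM), Mcm5 (3.88 CPM) and Cdk2 (15.9 CPM) lay above the newborn-type medians of 5.01, 3.85 and 13.9 CPM. After TMM scaling the same 3 were lowest, at 758, 688 and 658 CPM against a median of 1176 CPM. Control dam 4 was also the deepest library, with 34911410 counts. Summed islet hormone and processing markers were lowest in control female pup 4 (1225 CPM) and control dam 4 (1472 CPM) and stood at 1706 to 2433 CPM elsewhere in newborn type. The part of depth and of cell composition in these levels was not tested.

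The adult-type sum ran from 75.7 to 437 CPM, with a median of 219 CPM. TCDD male pup 8 (75.7 CPM) and TCDD male pup 11 (122 CPM) were low, 5 libraries lay between 217 and 241 CPM, and control dam 7 was high. That library held the highest adult-type value of 34 of the 41 genes, and TCDD male pup 8 the lowest of 30. Control dam 7 also had the highest summed lymphocyte markers (72.3 CPM against 0.912 to 38.7 CPM in the other adult-type libraries, 9 of 9 markers above 3 counts in some adult-type library) and islet markers (377 CPM against 106 to 247 CPM). It was also highest in macrophage and neutrophil (23.7 CPM), smooth muscle (10.6 CPM) and erythroid (15 CPM) markers. The part of any of these cells in its cell division counts was not tested. TCDD dam 8 was second both in lymphocyte markers and in the sum over the 41 genes (241 CPM). Other libraries did not keep this order. Control dam 5, lowest in lymphocyte markers (0.912 CPM), had a sum of 219.2 CPM, and TCDD dam 11, with 20.2 CPM of these markers, had 217.9 CPM.

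The balance of mitotic to replication genes does not depend on scaling, since both sums come from the same library. The 27 mitotic genes (with Top2a and Mki67) summed to 1.13 to 1.98 times the 10 replication genes in newborn type. The 4 newborn-type libraries labelled dam had ratios of 1.13 to 1.57, with a median of 1.21, and the 10 labelled pup had a median of 1.70 and a range of 1.36 to 1.98. In adult type, 5 libraries stood at 1.71 to 2.15, control dam 5 at 1.47, TCDD male pup 11 at 1.195 and TCDD male pup 8 at 0.657. The last was the single library of 22 in which the replication genes outweighed the mitotic genes. Over the mitotic genes the sum varied from 27.7 to 287 CPM in adult type, and over the replication genes from 42.2 to 134 CPM.

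**Figure D4:**
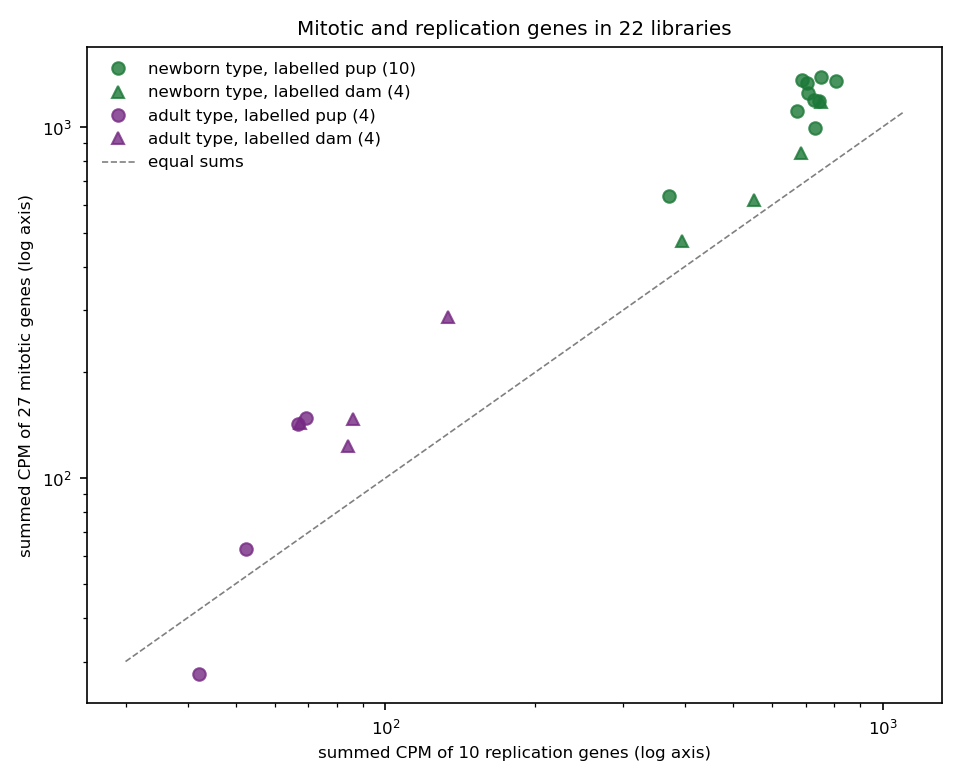
Summed CPM of the 27 mitotic genes against that of the 10 replication genes, 1 point per library on log axes, coloured by class and shaped by the label for stage, with a dashed line where both sums are equal. One adult-type library (TCDD male pup 8, 27.7 against 42.2 CPM) lies below the line, and the newborn-type libraries labelled dam lie nearer to it than most labelled pup.

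Across the 14 newborn-type libraries the median Pearson r between 2 of the 41 genes, on log2(CPM + 0.5), was 0.77, with no negative pair among 820, beside 0.26 between all symbols. Mitotic genes were closer to each other (median r 0.87) than S-phase genes were (0.71), and pairs across both sets had 0.64. Prc1, Ccna2 and Rrm1 followed the mean of the other genes most closely (r 0.98 each), and Mcm4 (0.48), Cdk2 and E2f1 (0.58 each) least. Across the 8 adult-type libraries the median r was 0.74, and 70 of 820 pairs were negative. Foxm1 (-0.33), Cip2a (0.01) and Mcm5 (0.14), each with 3 or fewer counts in some of these libraries, did not follow the others. All pairs share library and depth: the mean of the 41 genes had an r of -0.62 with the log2 total count in newborn type and -0.77 in adult type.

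Whether TCDD-labelled pancreas differed from Control-labelled pancreas was tested within newborn type, 6 libraries against 8, with edgeR's quasi-likelihood test. The Control-labelled libraries carry 3 litter numbers and the TCDD-labelled ones 4. Where these numbers are right, some libraries share a litter, and p-values over libraries may be too small. The numbers cannot all be right. Dam, female pup and male pup of control litters 2 and 4 were all newborn type, though only 1 pup of each sex was taken per litter. None of the 41 genes changed at an adjusted p under 0.05, and none of the 17109 probes tested did (0%). In the same fit 1 of the 41 genes (Cip2a) and 554 probes (3.24%) had an unadjusted p under 0.05, so the genes' share was near that of all probes. The median log2 fold change of the 41 genes was -0.10, with 32 below 0, beside -0.0013 over all probes. All adjusted p values of the 41 genes were 1. That sign rested on which libraries entered: in the 5 pup-labelled libraries whose Y-linked transcripts match the label (2 Control, 3 TCDD) the median was 0.29, with 38 of 41 above 0 and none called.

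Cip2a had the largest difference and was one of the genes the earlier litter comparison had picked, so it is not independent evidence. It stood at 1.15, 4.23 and 5.32 CPM (lowest, median and highest) in Control-labelled and at 1.11, 2.23 and 2.49 CPM in TCDD-labelled newborn-type libraries. Of the 8 Control-labelled libraries, 6 lay above every TCDD-labelled one, and control dam 4 and control female pup 4 lay among them. The log2 fold change was -0.88 ± 0.28 (SE, unadjusted p = 0.00523, adjusted p = 1 from edgeR). It stayed between -1.01 and -0.73 when any 1 library was left out.

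Ccnb2 and Cenpa, both from that earlier choice too, came next among the named genes. Ccnb2 stood at 8.48, 34.4 and 40.2 CPM in Control-labelled and at 14.3, 22.1 and 30.5 CPM in TCDD-labelled libraries (log2 fold change -0.48 ± 0.26, SE). Cenpa stood at 8.22, 28.7 and 35.7 CPM and at 16.1, 20.5 and 31.4 CPM (-0.38 ± 0.22). The 5 highest values of Ccnb2 and the 3 highest of Cenpa were in Control-labelled libraries, and so were the lowest values of both, in control dam 4 and control female pup 4. Pimreg, the fourth of those genes, had medians of 24.0 and 24.8 CPM and a log2 fold change of -0.03 ± 0.18.

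For the other mitotic genes described above, log2 fold changes (TCDD minus Control, ± SE) were -0.12 ± 0.19 for Top2a, -0.17 ± 0.21 for Mki67, -0.24 ± 0.24 for Ccna2, -0.20 ± 0.20 for Ccnb1 and -0.32 ± 0.25 for Plk1. They were -0.14 ± 0.17 for Cenpe, -0.29 ± 0.19 for Cenpf, -0.13 ± 0.17 for Kif20a, -0.05 ± 0.18 for Prc1 and 0.17 ± 0.19 for Kif23. Ranges of the 2 labels overlapped for each of them. These values are of 1 probe per gene, and probes of a gene could differ. The other Kif23 probe had -0.15 ± 0.15. For Aurka the probe read had -0.14 ± 0.24 and its other probe -0.74 ± 0.28 (unadjusted p = 0.0146 from edgeR, not called). All 9 centromere and checkpoint genes lay below 0, with a median of -0.26, beside 8610 of all 17109 probes below 0. Mitotic genes moved together across libraries, so these are not 9 separate observations. In the pup-labelled libraries whose Y-linked transcripts match the label, Cenpa, Cenpe and Cenpf lay above 0.

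Medians of the log2 fold change were 0.02 over the 10 replication genes, 5 of them below 0, and 0.03 over the 4 G1/S genes. Mcm6 stood at 62.2, 118.6 and 138 CPM in Control-labelled and at 126, 132 and 148 CPM in TCDD-labelled libraries (0.12 ± 0.13). Rrm1 had -0.10 ± 0.13, Mcm5 0.28 ± 0.24, Ccne1 0.25 ± 0.19 and Ccne2 0.09 ± 0.14. The TCDD-labelled libraries were the tighter group for Mcm6, the 2 lowest Control-labelled ones being control female pup 4 and control dam 4.

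**Figure D5:**
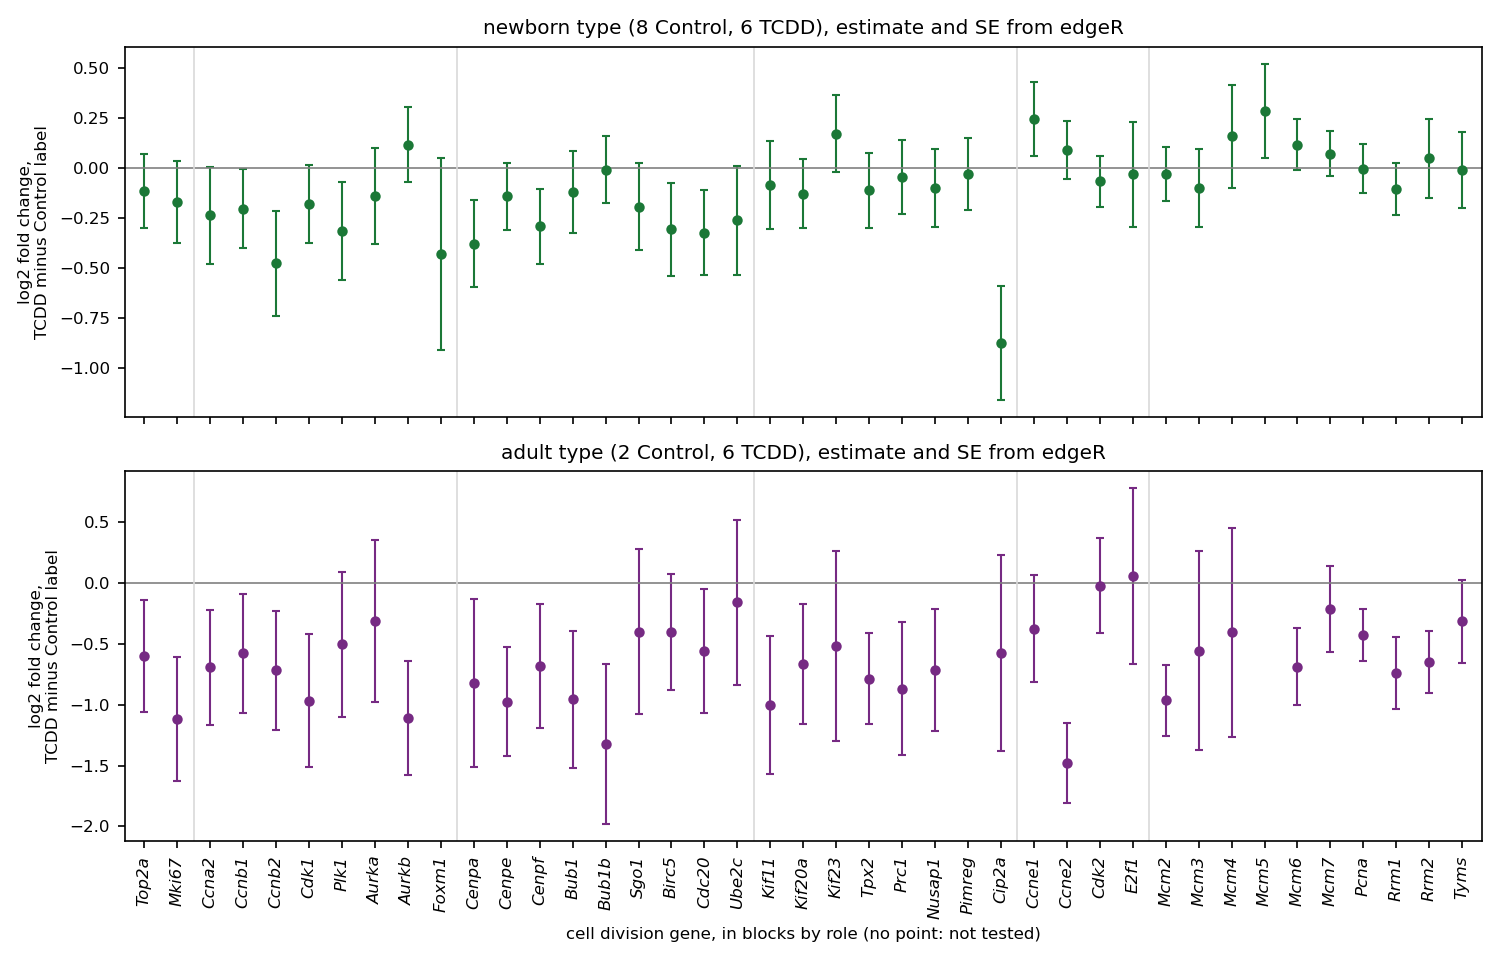
Log2 fold change of each cell division gene between TCDD-labelled and Control-labelled libraries, with the standard error from edgeR, in newborn type (upper panel) and adult type (lower panel). Cip2a at -0.88 lies apart from the other genes in the upper panel, and in the lower panel 37 of the 38 genes tested lie below 0 with wide errors.

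In adult type the comparison had 2 Control-labelled against 6 TCDD-labelled libraries. Both Control-labelled libraries were labelled dam, beside 2 of the 6 TCDD-labelled ones. The Control-labelled libraries were also the shallowest of the class (14068304 and 15359457 counts, against 15630257 or more). The mean of the 41 genes fell with the log2 total count in adult type (r -0.77). Chemical label, stage label and depth therefore cannot be told apart here. No probe of 13513 was called (0%), and 38 of the 41 genes passed the filter on low counts, none called. Of these, 37 had a log2 fold change below 0, with a median of -0.66 beside 0.02 over all probes, and 8 had an unadjusted p under 0.05 beside 2.87% of all probes. The size of that median turned on 1 library: without control dam 7 the median was -0.19, and without control dam 5 it was -0.98. Ccne2 stood at 8.07 and 9.74 CPM in control dams 5 and 7 and at 2.54 to 3.78 CPM in the 6 TCDD-labelled libraries, with no overlap (log2 fold change -1.48 ± 0.33, unadjusted p = 0.000433, adjusted p = 1 from edgeR). Its log2 fold change was -1.45 without control dam 7 and -1.51 without control dam 5. With the low-count filter dropped, edgeR called Ccne2 (adjusted p = 0.00149), Mki67 (0.0159) and Cenpe (0.0332) lower, among 112 probes in all. DESeq2 and limma-voom called none of the 41 genes.

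Other genes of the cell cycle were read from lists of 130 measured genes, chosen with earlier results known. Of 121 that passed the symbol filter, 106 were entirely higher in newborn type in CPM and none entirely lower, read against the 70.3% of all symbols that were entirely higher. Their median ratio was 9.07-fold in CPM (over 120 genes, as Cdkn1c has an adult-type median of 0), beside 9.05-fold for the 41 genes and 3.94-fold for all symbols. On the TMM scale it was 2.48-fold, beside 1.05-fold for all symbols, and 9 genes lay below 1, Paics, Cdc25a, Rbl2, Cdkn1a and Cdkn1b among them. Folds and levels in the lists that follow are in CPM, and a list's count of entirely higher genes near 70.3% says nothing about the list. Origin licensing and replication fork genes had the highest list median, 13.3-fold, with all 24 entirely higher. Examples were Gmnn, the licensing inhibitor geminin (103 against 9.96 CPM, medians), and Hells, a chromatin remodeller of replicating cells (85.2 against 4.58 CPM). Kinetochore genes had a median of 9.73-fold with 16 of 16 entirely higher, among them Cenpk (101 against 8.91 CPM) and Knl1 (97.6 against 6.93 CPM). S-phase checkpoint and repair genes stood at 9.54-fold, where Brca1, a repair factor, had 36.6 against 5.88 CPM. Mitotic kinesins and cytokinesis genes stood at 9.09-fold with 13 of 17 entirely higher, among them Kif15, a spindle kinesin (44.1 against 2.10 CPM), and Anln, the contractile ring protein anillin (33.3 against 3.97 CPM). Condensin, cohesin and separase genes stood at 7.71-fold (9 of 11), among them the cohesin subunits Smc1a (230.0 against 43.1 CPM) and Smc3 (169.8 against 25.5 CPM). For CDC25, WEE1 and mitotic exit the median was 7.58-fold (11 of 14), with Pbk, a mitotic kinase, at 186 against 23.1 CPM and Fbxo5, an inhibitor of the anaphase-promoting complex, at 67.7 against 7.21 CPM. Nucleotide supply genes stood at 7.05-fold (8 of 9), and the synthesis enzymes Paics and Cad had 87.8 against 28.1 CPM and 48.3 against 11.5 CPM. Paics turned on the TMM scale, to a log2 ratio of -0.27.

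D cyclins with CDK4 and CDK6 had a median ratio of 5.82-fold, with all 5 entirely higher, and 1.49-fold on the TMM scale. Cdk4, the kinase that inactivates RB, stood at 288, 430.4 and 498 CPM in newborn type and 33.2 to 46.2 CPM in adult type. Ccnd2, a cyclin D, stood at 52.1, 65.1 and 84.3 CPM and at 9.47, 11.2 and 16.1 CPM. Genes for E2F, RB and MYB-MuvB factors had a median of 6.19-fold (7 of 10 entirely higher) and 1.69-fold on the TMM scale. Lin54, the DNA-binding MuvB subunit, had 30.8 against 7.68 CPM and Rbl2, the RB relative, 11.3 against 4.28 CPM. Rbl2 turned on the TMM scale, to a log2 ratio of -0.55. The CDK inhibitors had a median ratio of 3.32-fold over the 4 genes with a ratio, and 3 of 5 were entirely higher. The other gene, Cdkn1c, had 1.81 CPM (median) in newborn type and at most 2 counts in any adult-type library, and with its adult-type level set to 3 counts per library the median was 3.47-fold, still under the 3.94-fold of all symbols. On the TMM scale the median over the 4 was 0.877-fold, and 3 of them lay below 1. Cdkn1b, which blocks cyclin-CDK2 complexes, had 17.4 against 5.48 CPM, and a log2 ratio of -0.35 on the TMM scale. Cdkn1a, a target gene of TRP53, had 5.50 against 1.78 CPM and a log2 ratio of -0.19 on the TMM scale. Cdc25a, a phosphatase that activates CDKs, had the lowest CPM ratio of the 120, 1.84-fold with overlapping classes, and a log2 ratio of -0.95 on the TMM scale.

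No change of these genes with the TCDD label passed the test. In newborn type 0 of 121 tested were called, 3 had an unadjusted p under 0.05 (Cdc25a 0.40 ± 0.14, Orc1 0.60 ± 0.23 and Cdc25c -0.74 ± 0.34, log2 fold change ± SE, adjusted p = 1 each from edgeR), and the median log2 fold change was -0.04, or 0.32 in the 5 pup-labelled libraries that match on Y-linked transcripts. In adult type 0 of 98 were called, 9 had an unadjusted p under 0.05, beside 2.87% of all probes, and the median was -0.50, with 79 below 0. Without control dam 7 the median was -0.22. Depth and stage label were tied to the chemical label in this class, as given above.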

How the data were processed

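A single matrix deposited by the authors holds unnormalized counts for 30146 probes in 22 libraries, with 11223816 to 34911410 counts per library. Per the labels' protocols it came from a TempO-Seq mouse whole transcriptome panel read on an Illumina NextSeq500, and per the submitters' processing notes reads were converted with bcl2fastq 2.17.1.14. Neither aligner nor build is named there (not given in the sources used here). Counts are reads without molecular identifiers, so the floor of 3 counts covers counting error only.

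The 41 genes, their roles and all lists were chosen with earlier results of these data known. Levels are CPM of the library total summed over the probes of a symbol. Classes came from summed Afp against Pnlip counts. A symbol entered the class description with at least 10 counts in 8 or more libraries. TMM-scaled CPM used factors of 1.22 to 1.88 in newborn type and 0.355 to 0.576 in adult type.

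TCDD labels were compared within each class with edgeR 4.0.16 under R 4.3.3 (glmQLFTest after filterByExpr and TMM; Benjamini-Hochberg over all probes, threshold 0.05), a gene being read by its probe of highest mean count. DESeq2 1.42.0 and limma 3.58.1 served as alternatives. Named genes were, in each role, any past the threshold, the 2 with the smallest unadjusted p and the 2 highest in newborn-type CPM; in each other list, the 2 of highest CPM where none passed (1 of these genes is not reported here); and other genes are named beside a count or an extreme after their values were seen. Tested on simulated data, the newborn-type fit recovered 96.1% and the adult-type fit 20.2% of probes changed by a log2 fold change of 1. Of the probes called, 4.66% and 10.4% were false. Only probes of higher mean count were changed, and libraries were drawn without a litter effect. Cip2a (44.7 counts) in newborn type, and Bub1 (39) and Aurkb (24.4) among others in adult type, lay under that cut, so the recovery does not cover them. Numbers in the labels name the litter, and those of control litters 2 and 4 cannot all be right, as given above. The arms share no litter number, and the numbers were not used to pair libraries in the main fit. Deviations from the arm mean correlated at -0.22 to 0.0973 (median -0.15) in the 9 pairs of newborn type that share a litter number. In the 34 pairs of different litter numbers within an arm they ran from -0.35 to -0.04 (median -0.19). Both sets of pairs rest on the labelled numbers. Taking away the arm mean pulls such correlations below 0, so they cannot decide whether litter mates are alike. Libraries of 1 litter are not independent animals of the dosing group.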

Additional observations from a re-analysis of the deposited data

Results flagged for a closer look

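Single libraries far from the rest of their group were sought for each gene and for the sum of the 41. The groups were Control-labelled newborn type (8 libraries), TCDD-labelled newborn type (6) and adult type (8), which made 126 searches. Chance gives about 5% flagged, but the genes move together, so the searches are not independent. In all, 11 searches flagged a library. Control dam 7 accounted for 9 of them within adult type. Its 41 genes summed to 437.1 CPM, with 241.3 CPM in the next library. Its levels were 15.64 CPM for Mki67, 27.37 for Ccna2, 6.824 for Aurkb, 16.7 for Cenpe, 3.199 for Bub1b, 5.402 for Kif11, 27.94 for Prc1 and 35.68 for Rrm1. The next highest adult-type libraries had 7.166, 13.75, 3.486, 8.083, 1.069, 2.376, 13.54 and 19.51 CPM.

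Foxm1 stood at 0.8138 CPM (14 counts) in TCDD male pup 8, the adult-type library lowest in most other cell division genes, with 0.2843 CPM in the next. E2f1, an activator of S-phase genes, stood at 11.82 CPM in TCDD male pup 6 among the TCDD-labelled newborn-type libraries, with 6.349 CPM in the next.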

How the results depend on the processing

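The count of probes called in newborn type was 0 in every alternative run, the litter number as replicate block among them (0 in both classes, estimated correlation 0.0129 and 0.0706). With 1 library left out it was 0 each time in newborn type and 0 to 2 in adult type. No cell division gene was called in any leave-one-out fit. Dropping the low-count filter gave 112 called probes in adult type (34 higher, 78 lower), 3 of them cell division genes. On the TMM scale the class log2 ratio of the members was 1.26 in place of 3.18, and 7 of them were entirely above, and without the 20 most abundant probes it was 2.53.

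In newborn type 16 values of named genes changed sign under other settings and 182 did not, and with 1 library left out 5 did and 247 did not, none of them called. In the 5 pups whose sex label matches Y-linked transcripts (2 against 3, control female pup 4 being 1 of the 2), the median of the members was 0.29, and Top2a had 0.24, Mki67 0.50, Ccna2 0.39, Ccnb1 0.26, Plk1 0.30, Cenpa 0.0422, Cenpe 0.41, Cenpf 0.27, Kif20a 0.27, Prc1 0.40 and Rrm1 0.24. Without a scaling factor Top2a had 0.0104, Kif20a 0.00489, Prc1 0.0911 and Rrm1 0.028, and in labelled pups alone Prc1 had 0.11. With 1 library left out, Top2a ran from -0.20 to 0.0121, Prc1 from -0.14 to 0.0848 and Ccne2 from -0.0335 to 0.23, the median of the members from -0.19 to 0.01 in newborn type (above 0 without TCDD dam 6) and from -0.98 to -0.19 in adult type. The cause of these changes was not tested. In probes of higher mean count, simulated log2 fold changes of 1 were recovered at 20.2% in adult type (2 against 6 libraries, common coefficient of variation 0.328). In newborn type the share was 96.1% (8 against 6, 0.198).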
